A study of Homo sapiens with 120 samples.

Results

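The 10 genes that carry glucose into the cell and along glycolysis to lactate were followed through CFPAC-1 libraries: the glucose transporter gene SLC2A1 and the enzyme genes HK2, GPI, ALDOA, TPI1, PGK1, PGAM1, ENO1, PKM and LDHA. They were chosen by name, 10 of the 27118 gene names on the 30504 rows of the deposited table, and each is present. PKM stands on 2 rows, of which the row with the higher mean is used unless the other is named. CFPAC-1 is an established human cell line from a pancreatic ductal adenocarcinoma. The 120 libraries, all from this line or from blanks, hold RNA amplified with the SMARTer kit and made into sequencing libraries with Nextera XT. In the gemcitabine experiment, cells were lifted from microrafts, small releasable culture wells, and each raft was labelled proliferative or nonproliferative. Each class has 8 rafts without treatment, 8 with saline, 8 with 2 nM gemcitabine and 8 with 5 nM gemcitabine, a nucleoside analogue that interferes with DNA synthesis. The labels give the number of cells on these rafts as unknown and name no exposure time. The isolation experiment, on untreated cells, has 10 rafts with 1 cell, 10 with 2 cells and 10 empty, 5 Fluidigm C1 microfluidic captures with 1 cell, 5 with 2 cells and 5 empty, and 4 bulk libraries of about 10000 cells. By their titles, the 7 water libraries are split between the experiments. Water libraries 1 to 3 go with the rafts and bulk of the isolation experiment. Water libraries 4 to 7 go with the untreated, saline, 2 nM and 5 nM arms, 1 each.

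Glycolysis splits glucose into pyruvate in the cytosol and yields ATP and NADH without oxygen. SLC2A1 encodes GLUT1, which lets glucose through the plasma membrane, and HK2 traps it as glucose 6-phosphate. GPI, ALDOA and TPI1 convert that sugar phosphate into triose phosphates, PGK1 and PKM make ATP further down, PGAM1 and ENO1 rearrange the phosphoglycerates between them, and LDHA reduces pyruvate to lactate and so restores NAD+. Many tumours, pancreatic carcinoma among them, run this pathway fast even with oxygen present, and the hypoxia-inducible factor HIF-1 and MYC are known activators of most of its genes.

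Values are FPKM, fragments per kilobase of transcript scaled by the library's mapped fragments, as deposited. The table holds no counts, which leaves each library's depth unknown and its values without a counting interval. Detection meant an FPKM of at least 1. Genes detected ran over 4804 to 8461 in rafts with 1 cell, 8560 to 10474 in C1 captures with 1 cell and 8570 to 10581 in bulk. They ran over 7 to 10206 in proliferative rafts and 79 to 10424 in nonproliferative rafts, so some rafts of both classes gave little. As a measure of how far a library resembled cells, Spearman rho with mean bulk was taken across 10609 genes with the 10 members left out. It was 0.592 to 0.730 in rafts with 1 cell, 0.456 to 0.537 in C1 captures with 1 cell, and -0.054 to 0.031 in empty rafts. In the 64 rafts of the gemcitabine experiment it reached 0.25 or more in 22 of 32 proliferative and 12 of 32 nonproliferative libraries. The epithelial keratin genes KRT8 and KRT18 were detected in all 10 rafts with 1 cell and in all 4 bulk libraries, as in an epithelial line. They belong to a list of 8 epithelial markers, each detected in at least 1 raft with 1 cell. In bulk 7 of the 8 were detected and 1 was at 0 in every library. RNA per library depends both on the number of cells recovered and on the RNA in each cell, and these cannot be told apart. The labels do not say that rafts come from separate cultures, so p-values measure the spread between rafts, which may be technical.

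In rafts with 1 cell, ALDOA and the enzymes after it had higher median FPKM than SLC2A1, HK2 and GPI. This did not hold in C1 captures with 1 cell, where PGAM1 had a median of 21.3 FPKM. SLC2A1 had a median of 61.3 FPKM there, above PGAM1 in 3 of 5 captures, and GPI one of 144 FPKM. Within the 10 rafts with 1 cell, ALDOA (lowest 1007, median 2073, highest 3031 FPKM), ENO1 (704, 2060 and 2899), LDHA (712, 1431 and 2810) and TPI1 (457, 928 and 1413) were the highest 4 members by FPKM. PGAM1 (179, 317 and 398 FPKM), PKM (140, 270 and 517) and PGK1 (61.2, 219 and 408) formed a middle group. SLC2A1 (21.5, 80.0 and 143 FPKM) and GPI (9.72, 42.2 and 96.2) came next, while HK2 was listed at 0 in 6 of the 10 rafts and reached at most 12.4 FPKM. Neighbours within each of these groups did not differ beyond their spread between libraries, so the order inside a group is not resolved.

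In bulk the order of FPKM levels was different at the top. LDHA was the highest member, with 1605, 1860, 2002 and 1711 FPKM in the 4 bulk libraries, and ENO1 followed with 724, 1345, 1711 and 1237 FPKM. The difference of ENO1 over LDHA within a library, in log2 FPKM, averaged 0.96 ± 0.46 in rafts with 2 cells (SD, n = 10, positive in 10) and -0.58 ± 0.40 in bulk (SD, n = 4, positive in 0). In rafts with 1 cell it averaged 0.33 ± 0.96 (SD, n = 10, positive in 7) and ran from -1.59 to 1.68, which overlaps bulk. With rho of at least 0.25 the same within-library difference averaged 1.21 ± 0.64 in proliferative rafts (SD, n = 22, positive in 21) and 0.61 ± 2.89 in nonproliferative rafts (SD, n = 12, positive in 7). Depth, cell number and amplification of little RNA differ between rafts and bulk, and their part in this order was not tested.

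**Figure D1:**
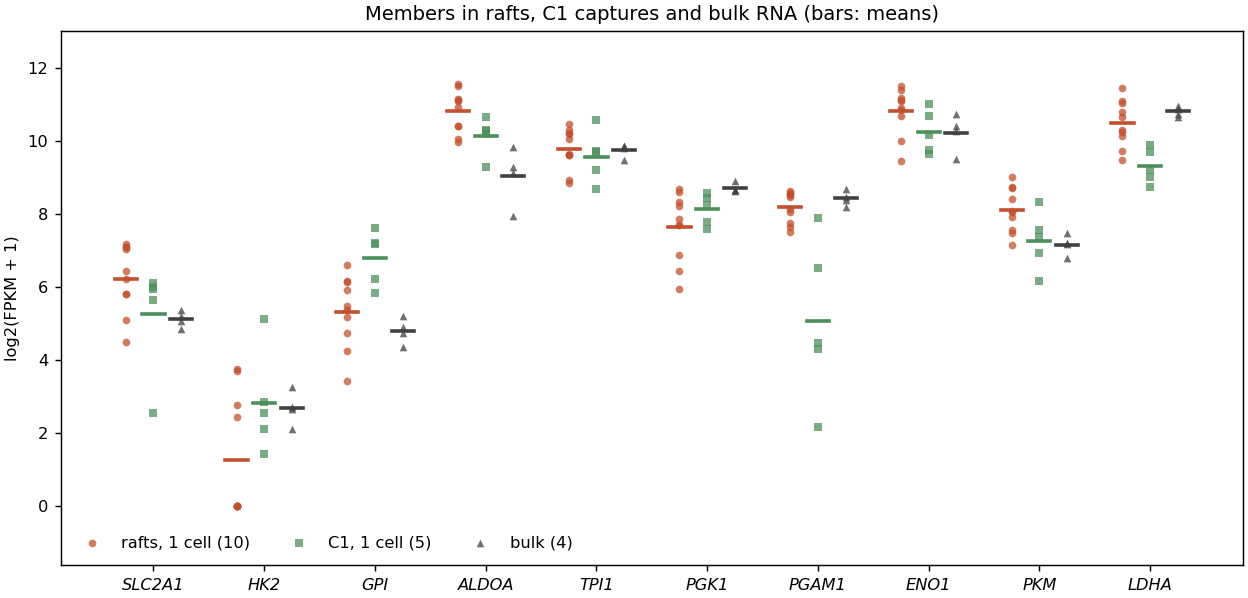
FPKM of the 10 members on a log2(FPKM + 1) axis in rafts with 1 cell (10 libraries), C1 captures with 1 cell (5) and bulk (4), with points for libraries and bars for means. PGAM1 lies low and spread out in the C1 captures, from 3.49 to 238 FPKM, while HK2 is the lowest member in rafts, at 0 in 6 of 10.

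For the isolation comparisons each group of cells counts as 1 sample, because the labels name no culture, so differences between means of log2(FPKM + 1) are given without a test. A gene was counted past the fold at a difference of 1 or more on that scale, among genes detected in at least 5 libraries of the pair. Between rafts with 1 cell and C1 captures with 1 cell, 2 of the 10 members were past the fold upward in rafts (PGAM1 and LDHA), against 26.1% of 10040 genes. Another 2 were past it downward (HK2 and GPI), against 34.4% of genes. The members' median difference was 0.63, and that of all 10040 genes was -0.26. The members' shares lay near those of all genes, so the counts are no result about glycolysis as a group. Genes detected were fewer in rafts (median 6853) than in C1 captures (median 9084), and the sum of 5 genes associated with blanks, a list picked from earlier results of these data, had medians of 24.0 FPKM in rafts and 686 FPKM in C1 captures. The summed FPKM of 8 proliferation markers had medians of 1000 in rafts, 20.5 in C1 captures and 1344 in bulk. The part of genes detected and of these marker sums in the members' differences was not tested.

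PGAM1, the phosphoglycerate mutase, differed most. It had 179, 317 and 398 FPKM (lowest, median and highest of 10) in rafts with 1 cell, against 21.3, 238, 3.49, 91.4 and 18.6 FPKM in the 5 C1 captures with 1 cell, a difference of 3.11 on the log2 scale. Only C1 capture 2 reached the range of the rafts. Without C1 capture 3 the difference was 2.38 and without capture 2 it was 3.82. Bulk libraries held 351, 333, 407 and 290 FPKM of PGAM1, all above every C1 capture with 1 cell and within or just above the raft range. The C1-to-bulk difference was -3.35. In C1 captures with 2 cells PGAM1 stood at 195, 131, 275, 16.5 and 159 FPKM, and the difference from C1 captures with 1 cell was 1.77, with overlapping ranges. PGAM1 has a near-identical retrogene copy and pseudogenes, as several of the other members do, and the table does not show how RSEM divided reads shared among such copies.

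LDHA, which makes lactate, had 712, 1431 and 2810 FPKM (lowest, median, highest) in rafts with 1 cell, against 593, 827, 511, 944 and 425 FPKM in C1 captures with 1 cell, a log2 difference of 1.19. Of the C1 captures 2 reached the lower rafts, and all 5 lay below all 4 bulk libraries (1605 to 2002 FPKM), with a C1-to-bulk difference of -1.50. LDHB, the sister subunit that makes up the heart-type enzyme, had medians of 1172 FPKM in rafts, 776 FPKM in C1 captures and 1842 FPKM in bulk. Both lactate dehydrogenase genes therefore had their lowest median in the C1 captures.

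GPI, the isomerase of the hexose phosphates, went the other way. Its lowest, median and highest raft values were 9.72, 42.2 and 96.2 FPKM, while the 5 C1 captures had 55.7, 144, 195, 73.1 and 148 FPKM, a difference of -1.48. C1 captures 1 and 4 overlapped the upper rafts. Bulk libraries had 19.5, 29.2, 25.7 and 36.3 FPKM, below all 5 C1 captures (difference 2.00). GPI was also the single member found in empty rafts, with 228, 793 and 60.1 FPKM in 3 of 10 and 0 in the others, so a GPI value between 60.1 and 793 FPKM is not by itself a sign of cells here.

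HK2, the inducible hexokinase, had 0 in 6 of the 10 rafts and up to 12.4 FPKM in the other 4, against 3.35, 6.29, 33.9, 1.70 and 4.89 FPKM in the C1 captures, a difference of -1.56. Bulk had 3.38, 5.35, 5.60 and 8.63 FPKM, and the raft-to-bulk difference was -1.43. These values depend on the pseudocount, since with 0.1 in place of 1 they became -3.34 and -3.27. At 2 cells, HK2 was at 0 in 3 of 10 rafts. SLC2A1, the entry transporter, had 21.5, 80.0 and 143 FPKM in rafts, against 68.2, 49.04, 4.90, 61.3 and 63.5 FPKM in C1 captures and 32.7, 28.1, 40.1 and 36.2 FPKM in bulk. Rafts lay 0.97 above C1 captures and 1.10 above bulk on the log2 scale, with overlap in both pairs. C1 capture 3 stood apart at 4.90 FPKM of SLC2A1, and without it rafts lay 0.30 above C1 captures. The same capture held the highest HK2, and without it HK2 differed by -0.98.

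ALDOA, the aldolase that cuts the hexose into trioses, had 1007, 2073 and 3031 FPKM (lowest, median, highest) in rafts, against 620, 1251, 1172, 1596 and 1244 FPKM in C1 captures and 247, 556, 907 and 627 FPKM in bulk. All 10 rafts lay above all 4 bulk libraries, with a difference of 1.77, and the C1-to-bulk difference was 1.09 with overlap. Between rafts and bulk, 2 members were past the fold upward (ALDOA and SLC2A1), against 7.42% of 9552 genes, and 2 downward (HK2 and PGK1), against 34.9%. Between C1 captures and bulk, 2 were past it upward (GPI and ALDOA), against 24.7% of 9540 genes, and 2 downward (PGAM1 and LDHA), against 35.5%. These comparisons share libraries, so they are not independent of each other. Without bulk library 1, which had the lowest ALDOA, 1 member was past the fold upward between C1 captures and bulk, and the same count was found without C1 capture 4.

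PGK1, which makes the first ATP of the pathway, had 61.2, 219 and 408 FPKM in rafts, against 381, 303, 347, 218 and 193 FPKM in C1 captures and 404, 480, 397 and 406 FPKM in bulk. Raft 1-cell libraries were lower than bulk by a log2 difference of -1.08 with an overlap at the top, and C1 captures were lower by -0.59 without overlap. TPI1, ENO1 and the PKM row with the higher mean stayed under the fold in every one of these pairs of groups with 1 cell. TPI1, the triose isomerase, differed by 0.21 between rafts and C1 captures and by 0.04 between rafts and bulk. ENO1, the enolase, differed by 0.57 and 0.59, and PKM, the pyruvate kinase, by 0.85 and 0.95. The PKM row with the lower mean did not overlap bulk. It ran from 146.5 to 1234 FPKM in rafts and from 152 to 527 FPKM in C1 captures, against 25.15 to 95.78 FPKM in bulk.

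The libraries of rafts and bulk were placed in 2 library sets, inferred from the style of the titles and the index pairs. Each set has 2 bulk libraries. Bulk library 3, with the highest ALDOA of the 4 at 907 FPKM, was placed in set B by its index pair alone. Its title reads Rnd1, while the other titles of set B that name a round read Rnd2. The values against bulk by set rest on that uncertain placement. In set A the median difference of members between rafts and C1 captures was 0.51 and in set B 0.52. PGAM1 was higher by 3.21 in set A and 3.01 in set B, GPI differed by -1.28 and -1.67, LDHA by 1.44 and 0.93 and HK2 by -0.78 and -2.33. Against bulk of the same set, ALDOA differed by 2.07 in set A and 1.47 in set B, PGK1 by -0.89 and -1.27, HK2 by -0.36 and -2.51, and SLC2A1 by 1.49 and 0.70. PKM differed from C1 captures by 1.22 in set A and 0.47 in set B. Directions were the same in both sets for each of these genes, while HK2, LDHA, PGK1, SLC2A1 and PKM were past the fold in 1 set and not in the other.

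With a second cell on the raft the members' levels stayed within the fold. Between rafts with 2 cells and rafts with 1 cell, none of the 10 members was past the fold upward, against 21.2% of 10529 genes, and none downward, against 1.37%. The members' median difference was 0.31 and that of all genes 0.40. The SD of log2(FPKM + 1) between libraries was lower with 2 cells for every member except PGAM1, where it was 0.57 with 2 cells and 0.43 with 1 cell. ALDOA ran from 1425 to 2010 FPKM with 2 cells (CV 12.8%) and from 1007 to 3031 FPKM with 1 cell (CV 37.2%), and TPI1 from 823 to 1320 FPKM (CV 14.1%) and from 457 to 1413 FPKM (CV 34.8%). PGAM1 ran from 161 to 559 FPKM with 2 cells (CV 33.4%) and from 179 to 398 FPKM with 1 cell (CV 27.6%). In set B alone HK2 was higher with 2 cells by 1.68. Between C1 captures with 2 cells and with 1 cell, PGAM1 was past the fold upward, against 18.1% of 9912 genes, and PKM downward, against 8.47%. PKM was at 0 in 1 capture with 2 cells and at 43.3 to 103 FPKM in the other 4, against 71.5 to 320 FPKM in captures with 1 cell. The difference was -2.45, and -1.24 without the capture at 0.

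Libraries without cells bound what a single high value can mean. In the 10 empty rafts every member but GPI was at 0. Among the 7 water libraries, 1 held 3864 FPKM of ALDOA, 1387 FPKM of TPI1, 1844 FPKM of ENO1, 1813 FPKM of PKM and 1749 FPKM of LDHA, and another held 7671 FPKM of ALDOA, 8312 FPKM of TPI1 and 4708 FPKM of ENO1. Both belong to the isolation experiment. In 3 water libraries, those of the untreated, 2 nM and 5 nM arms, no member was detected. Empty C1 captures had LDHA of up to 8434 FPKM and PKM of up to 314 FPKM. FPKM is a share of the library, so a few molecules of 1 gene in a nearly empty library can give a level above that of bulk.

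**Figure D2:**
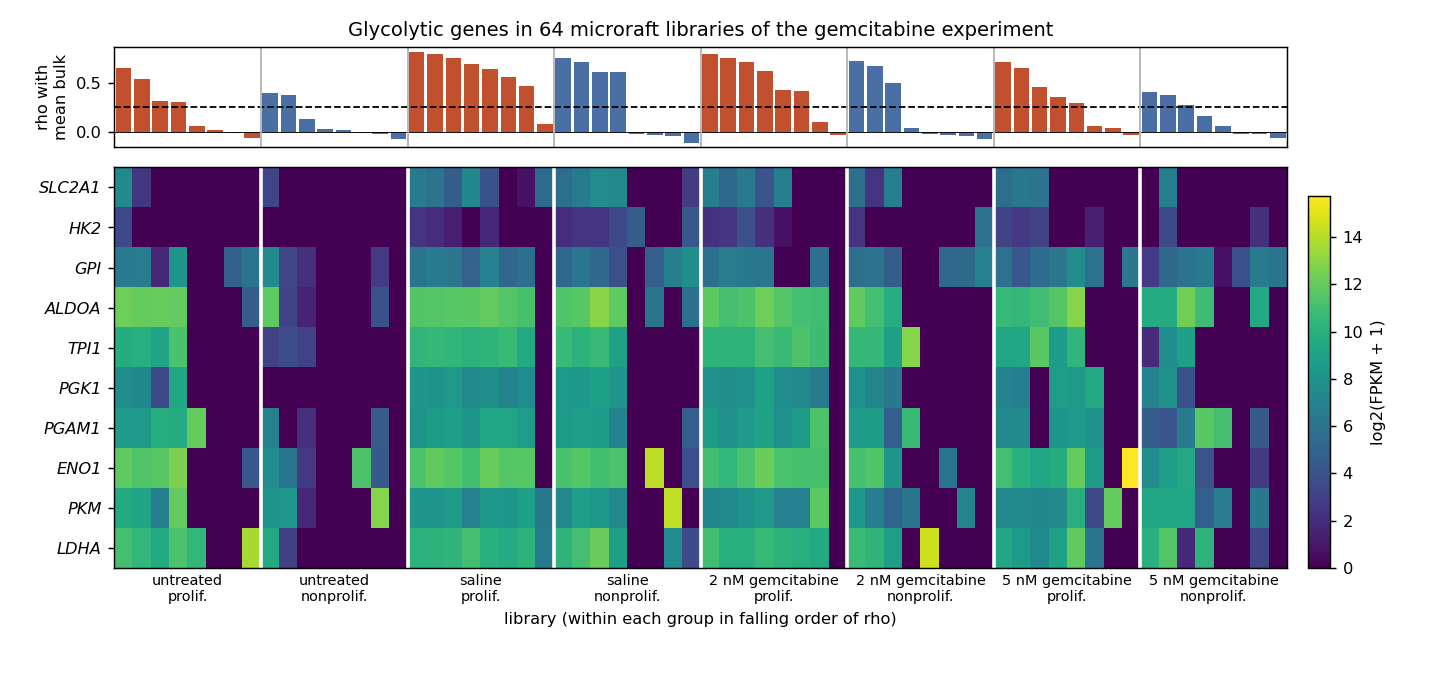
Each column is 1 of the 64 rafts of the gemcitabine experiment, grouped by arm with proliferative left of nonproliferative and sorted by falling rho with bulk (top bar, dashed at 0.25), and colour gives log2(FPKM + 1) of each member. Columns with rho of 0.25 or more are mostly filled, and those with rho near 0 hold isolated high values.

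In the gemcitabine experiment the enzymes of the trunk of the pathway were found together in most libraries that resembled bulk. All 7 of ALDOA, TPI1, PGK1, PGAM1, ENO1, PKM and LDHA were detected in 22 of 32 proliferative and in 10 of 32 nonproliferative rafts. The median number of members detected was 8 in proliferative rafts and 5.5 in nonproliferative rafts. Detection followed the resemblance of a library to bulk. Of the 34 libraries with rho of at least 0.25, 31 held all 7 and none lacked all 7, while of the 30 libraries under that value 1 held all 7, 19 held some and 10 held none. By gene, the proliferative and nonproliferative rafts with a detected level were 26 and 20 of 32 for ENO1, 27 and 17 for LDHA, 24 and 18 for ALDOA, 23 and 14 for TPI1, and 23 and 10 for PGK1. For GPI they were 25 and 24, for SLC2A1 16 and 10, and for HK2 13 and 10.

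**Figure D3:**
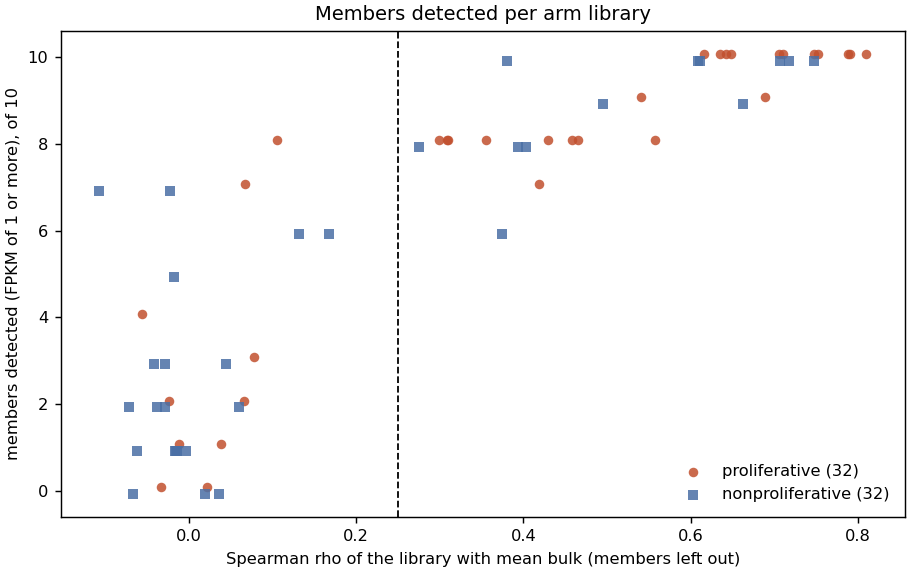
Number of the 10 members detected (FPKM of 1 or more) against Spearman rho with bulk for each of the 64 rafts, with proliferative and nonproliferative points set slightly apart in height and a dashed line at 0.25. Right of the line 31 of 34 libraries hold all 7 of the abundant enzymes, and left of it 1 of 30 does.

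Isolated values in libraries with rho near 0 were the highest of the experiment. ENO1 reached 54785 FPKM in a 5 nM proliferative raft with rho of -0.02, where the other 8 members apart from GPI were at 0. LDHA reached 23452 FPKM in a 2 nM nonproliferative raft, PKM 18976 FPKM and ENO1 18449 FPKM in 2 saline nonproliferative rafts, and LDHA 12744 FPKM in an untreated proliferative raft. Each of these 5 libraries had a rho under 0.25. The highest member level in a water library was 8312 FPKM, of TPI1, but that library belongs to the isolation experiment. Among the arms' own water libraries the highest was 309 FPKM, of PGAM1 in the saline arm. No member was detected in the water libraries of the untreated, 2 nM and 5 nM arms.

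The labels' 2 proliferation classes pose the question of whether expression differs between them. limma was run on log2(FPKM + 1) over the 52 libraries with at least 1000 genes detected (26 of each class) and 11416 genes detected in at least 8 of them, with Benjamini-Hochberg adjustment over all genes and a threshold of 0.05. Averaged over the 4 arms, 5 of the 10 members rose in proliferative rafts: ENO1, TPI1, LDHA, PGK1 and ALDOA. Over all genes 11.5% were higher (1314 genes) and 0.78% lower (89 genes), and no member was lower. The median difference was 3.52 for the members and 0.58 for all genes tested. The libraries of the classes also differed as wholes. Genes detected had medians of 6022 in proliferative and 2800 in nonproliferative libraries of the fit, rho had medians of 0.549 and 0.150, and the summed FPKM of 8 epithelial markers had medians of 3663 and 1029. With genes detected as a covariate, 216 genes were higher with a median of 0.15 over all genes, and 4 members passed with a members' median of 2.86: ENO1 (4.88), LDHA (4.21), TPI1 (4.14) and PGK1 (3.52). Many genes detected did not always go with resemblance to bulk. Nonproliferative saline raft 3 had 10424 genes and rho of -0.107, and nonproliferative 5 nM raft 7 had 10198 genes and rho of -0.022. Both entered this fit and the one with at least 4000 genes detected. The part of rho and of the marker sums in the members' differences was not tested in the 52 libraries.

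Among the 26 proliferative libraries of the fit, ENO1 had a lowest, median and highest level of 18.6, 2527 and 54785 FPKM, against 0, 66.7 and 18449 FPKM in 26 nonproliferative libraries. ENO1 makes phosphoenolpyruvate, and it was at 0 in 7 nonproliferative libraries of the fit and in no proliferative one. The difference was 5.25 ± 1.14 (log2, SE; limma adjusted p = 0.00249). TPI1 had 0, 1212 and 3300 FPKM in proliferative libraries, against 0, 5.16 and 7518 FPKM in nonproliferative libraries, with a difference of 4.86 ± 1.13 (SE; limma adjusted p = 0.00402). It was at 0 in 3 proliferative and 12 nonproliferative libraries, and the ranges overlapped, as they did for every member.

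LDHA had 0, 1041 and 12744 FPKM in proliferative libraries, against 0, 10.3 and 4585 FPKM in nonproliferative libraries, a difference of 4.82 ± 1.13 (SE; limma adjusted p = 0.00424). PGK1 had 0, 207 and 708 FPKM in proliferative libraries, against 0, 0 and 486 FPKM in nonproliferative libraries, a difference of 4.09 ± 0.96 (SE; limma adjusted p = 0.00428). PGK1 was at 0 in 3 of 26 proliferative and in 16 of 26 nonproliferative libraries, so the comparison is largely one of being found or not. ALDOA had 0, 2899 and 7492 FPKM in proliferative libraries, against 0, 389 and 7830 FPKM in nonproliferative libraries, a difference of 4.22 ± 1.21 (SE; limma adjusted p = 0.0159).

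The other 5 members did not pass. PGAM1 had medians of 377 FPKM in proliferative and 24.5 FPKM in nonproliferative libraries, with a difference of 2.94 ± 1.07 (SE; limma adjusted p = 0.0523), and it passed in 14 of the 52 fits that left out 1 library. PKM, by its row with the higher mean, had medians of 226 and 124 FPKM in proliferative and nonproliferative libraries, with a difference of 1.46 ± 1.10 (limma adjusted p = 0.354). SLC2A1, at 1.22 ± 0.77 (limma adjusted p = 0.262), and GPI, at 0.88 ± 0.90 (limma adjusted p = 0.498), stood at the entry of the pathway. HK2 was the least different, with 0.19 ± 0.49 (limma adjusted p = 0.800). The members that did not pass include the 3 with the lowest FPKM in bulk, SLC2A1, GPI and HK2. The call of 5 members rested on which libraries entered: with at least 4000 genes detected, which left 26 libraries and no untreated nonproliferative one, no member passed (3 at an unadjusted limma p under 0.05), and without the untreated arm 3 passed, ENO1 (4.92, limma adjusted p = 0.0159), TPI1 (4.47, adjusted p = 0.0235) and PGK1 (3.59, adjusted p = 0.0308).

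The 34 libraries with rho of at least 0.25 (22 proliferative and 12 nonproliferative) gave much smaller differences. There, 2 of the 10 members rose in proliferative rafts, TPI1 and ENO1, against 0.712% of 9976 genes, and the median difference was 1.39 for the members and 0.32 for all genes. TPI1 had 419, 1237 and 3300 FPKM in proliferative libraries, against 2.74, 507 and 1615 FPKM in nonproliferative libraries, a difference of 2.77 ± 0.48 (SE; limma adjusted p = 0.000531). ENO1 had 609, 2671 and 6501 FPKM in proliferative libraries, against 65.4, 1358 and 3031 FPKM in nonproliferative libraries, a difference of 2.03 ± 0.33 (SE; limma adjusted p = 0.000242). Both genes had their lowest values in nonproliferative libraries, and the ranges overlapped. For the other 3 members called in the 52 libraries the medians lay close together. ALDOA had medians of 2957 and 2949 FPKM in proliferative and nonproliferative libraries (difference 1.36 ± 0.42, limma adjusted p = 0.110). LDHA had 1094 and 1119 FPKM (1.42 ± 0.59, limma adjusted p = 0.308), and PGK1 had 218 and 204 FPKM (1.76 ± 0.73, limma adjusted p = 0.304). SLC2A1 turned to -0.14 ± 0.99 (limma adjusted p = 0.970), with medians of 31.5 and 53.1 FPKM. Among these 34 libraries the median rho was 0.625 in proliferative and 0.552 in nonproliferative ones, and the median number of genes detected 6779 and 5650.

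**Figure D4:**
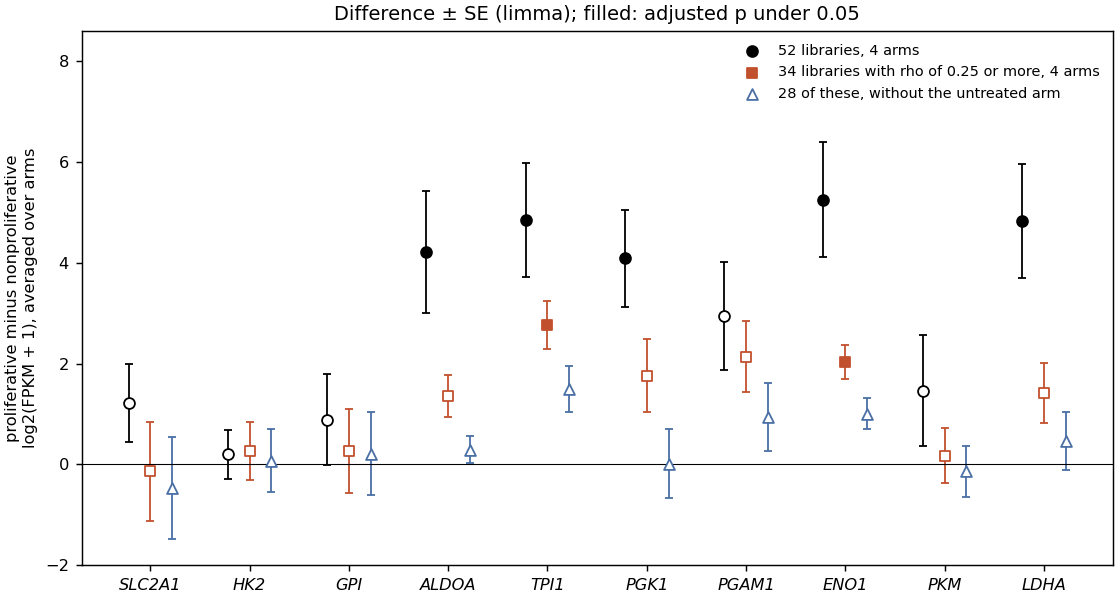
Difference of proliferative minus nonproliferative rafts in log2(FPKM + 1), with SE, for each member in 3 sets of libraries: 52 with at least 1000 genes, 34 with rho of at least 0.25, and 28 of those without the untreated arm. Filled points passed the threshold (limma, adjusted p under 0.05), which 5, 2 and 0 members did.

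TPI1 and ENO1 passed in each of 18 fits of these libraries that left out 1 raft of the untreated arm, of the 5 nM arm or of the saline nonproliferative group, an alternative added after seeing the data. The untreated arm held the greatest differences. In the fit of the 34 libraries, 4 members rose in untreated proliferative rafts, against 0.561% of genes: ENO1, TPI1, ALDOA and PGK1. This rests on 4 proliferative and 2 nonproliferative libraries. ENO1 had 6501, 3753, 2808 and 3199 FPKM in the proliferative rafts, against 189 and 65.4 FPKM in the nonproliferative rafts, a log2 difference of 5.10 (limma adjusted p = 2.9e-05). TPI1 had 2382, 855, 961 and 594 FPKM, against 7.58 and 12.5 FPKM, a difference of 6.60 (limma adjusted p = 0.000238). The classes did not overlap for either gene. PGK1 had 699, 222, 159 and 9.95 FPKM, against 0 in both nonproliferative rafts, a fitted difference of 7.01 (limma adjusted p = 0.0262) that depends on the pseudocount. ALDOA had 4027, 4907, 4147 and 4246 FPKM, against 3735 and 8.05 FPKM, a difference of 4.55 (limma adjusted p = 0.00641). These 2 nonproliferative rafts had 2353 and 2196 genes detected and rho of 0.39 and 0.37, while the 4 proliferative ones had 1495, 8271, 5604 and 1525 genes and rho of 0.31, 0.64, 0.54 and 0.31. Without nonproliferative raft 4, ENO1 differed by 5.86 (limma adjusted p = 4.2e-05) and TPI1 by 6.27 (0.00513), and without raft 7 by 4.34 (0.00579) and 6.92 (0.00231). ALDOA differed by 8.90 without raft 4 and lost its call without raft 7 (0.21, limma adjusted p = 0.9995). PGK1 lost its call without either of these rafts (limma adjusted p = 0.0917 and 0.121) and without proliferative raft 1 or 4 (0.0616 and 0.0506). PKM was present in both nonproliferative rafts, at 288 and 341 FPKM, against 3981, 764, 578 and 112 FPKM in the proliferative rafts.

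In saline rafts the classes overlapped. With 7 proliferative and 4 nonproliferative libraries, no member passed in either direction, 0 had an unadjusted limma p under 0.05, and 0% of genes were higher. ENO1 ran from 2029 to 4419 FPKM in proliferative rafts, against 1989, 2399, 3031 and 2442 FPKM in nonproliferative rafts, with a difference of 0.34. TPI1 ran from 737 to 1623 FPKM, against 1615, 1587, 1159 and 515 FPKM, a difference of 0.13. The 4 nonproliferative saline rafts had 6428 to 9107 genes detected and rho of 0.61 to 0.75. LDHA differed by -0.40, PGK1 by -0.65, ALDOA by -0.37 and SLC2A1 by -2.64 without passing.

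With 2 nM gemcitabine (6 proliferative and 3 nonproliferative libraries) no member passed and 0 had an unadjusted limma p under 0.05, against 0% of genes higher, with differences of 0.88 for ENO1 and 0.66 for TPI1. With 5 nM (5 and 3 libraries) TPI1 rose, against 0.441% of genes. It had 3300, 605, 419, 671 and 1294 FPKM in proliferative rafts, against 498, 200 and 2.74 FPKM in nonproliferative rafts, a difference of 3.70 (limma adjusted p = 0.049). TPI1 was called in 7 of the 18 fits leaving out 1 library, with differences of 1.57 to 5.10, and without the nonproliferative raft at 2.74 FPKM it differed by 1.57 (limma adjusted p = 0.521). ENO1 had 609, 2132, 850, 1038 and 4117 FPKM, against 728, 446 and 191 FPKM, a difference of 1.78 (limma adjusted p = 0.233). The class difference itself varied between arms for TPI1 (limma adjusted p = 0.0263) and ENO1 (limma adjusted p = 0.0314) in a test of the interaction that called 0.251% of genes. In the 18 fits leaving out 1 library, that test called ENO1 in 11 and TPI1 in 15, with a highest limma adjusted p of 0.251 for ENO1 and 0.0666 for TPI1. When the untreated arm was left out, an alternative added after seeing these values, none of the 10 members passed and 2 had an unadjusted limma p under 0.05, against 0.196% of 9671 genes, and the members' median was 0.25. ENO1 then differed by 1.00 ± 0.31 (limma adjusted p = 0.232) and TPI1 by 1.50 ± 0.46 (limma adjusted p = 0.225).

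Over the 52 libraries no member passed within a single arm, where the shares of genes called in either direction were 0% without treatment, 0% with saline, 0.0263% with 2 nM and 0% with 5 nM. At an unadjusted p under 0.05, limma gave 5 members without treatment, 1 with saline, 6 with 2 nM and 2 with 5 nM. The differences of ENO1 were 6.25, 2.59, 5.90 and 6.27 in that order of arms, and those of LDHA were 8.69, 2.53, 5.85 and 2.22. Those of TPI1 were 6.02, 4.46, 4.54 and 4.41. PGAM1 and ALDOA were largest with 2 nM or without treatment and lowest with 5 nM, where they differed by -0.40 and 0.60. The difference between arms was past the threshold for no member, against 0% of genes.

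Median ENO1 over all 8 rafts of each proliferative group was 1413 FPKM without treatment, 3098 FPKM with saline, 2310 FPKM with 2 nM and 944 FPKM with 5 nM. In nonproliferative groups it was 12.9 FPKM without treatment, 2194 FPKM with saline, 34 FPKM with 2 nM and 10.3 FPKM with 5 nM. Median TPI1 was 297, 1271, 1400 and 512 FPKM in the proliferative groups in the same order, and 0, 258, 243 and 0 FPKM in the nonproliferative groups. For both genes the saline arm had the highest nonproliferative median, and ranges from 0 upward overlapped throughout. By the index pairs each arm is a library set of its own, so treatment and library set cannot be told apart.

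No member passed in any of the 8 treatment comparisons over the 52 libraries, several of which share the saline rafts. At an unadjusted p under 0.05, limma gave 5 members for saline against no treatment and 2 for 5 nM against saline, both in nonproliferative rafts, and 0 in the other 6 comparisons. The shares of genes called were 0.00876% for saline against no treatment in proliferative rafts and 0% in nonproliferative rafts. For 2 nM against saline they were 0% in both classes. For 5 nM against saline they were 0.0438% in proliferative and 0% in nonproliferative rafts, and for 5 nM against 2 nM 0.0175% and 0%. The smallest member p was for PGK1 in saline against untreated nonproliferative rafts, at 4.85 on the log2 scale (limma adjusted p = 0.341). In the libraries with rho of at least 0.25, 4 members were higher in saline than in untreated nonproliferative rafts, against 0.842% of genes: TPI1 by 6.70 (limma adjusted p = 0.000213), ENO1 by 4.44 (0.000484), PGK1 by 8.49 (0.00306) and ALDOA by 4.43 (0.0109). This comparison uses the same 2 untreated nonproliferative rafts described above, and without raft 7 the call of ALDOA was lost. With 5 nM against saline, TPI1 fell by 3.95 (limma adjusted p = 0.035) and ENO1 fell by 2.62 (limma adjusted p = 0.0441) in nonproliferative rafts, against 0.962% of genes lower. Of the 18 fits leaving out 1 library, TPI1 was called in 14, with differences of -5.35 to -1.82, and ENO1 in 12, with differences of -3.06 to -2.10. The highest limma adjusted p was 0.253 for TPI1 and 0.141 for ENO1, both without nonproliferative 5 nM raft 8. The 5 nM rafts had 3719 to 4478 genes detected and rho of 0.28 to 0.40, and the saline rafts 6428 to 9107 genes and rho of 0.61 to 0.75, and the part of this in the result was not tested.

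PKM gave different answers by row. Pyruvate kinase has alternative transcripts from the same gene, and the table does not say which transcripts each PKM row stands for. By the row with the lower mean, an alternative added after seeing the data, PKM rose in proliferative rafts of the 52 libraries by 4.75 ± 0.99 (limma adjusted p = 0.00233), against 11.6% of genes. In the libraries with rho of at least 0.25, that row was detected in 22 of 22 proliferative rafts (153 to 2469 FPKM, median 354) and in 7 of 12 nonproliferative rafts (median 74.8 FPKM). It was at 0 in both untreated and all 3 of the 5 nM nonproliferative rafts, where the row with the higher mean held 288 to 676 FPKM. The higher row's share of both had a median of 43.1% in those proliferative rafts and 63.9% in those nonproliferative rafts. In the isolation experiment the share had medians of 41.3% in rafts with 1 cell, 38.5% in rafts with 2 cells, 41.8% in C1 captures with 1 cell, 22.9% in C1 captures with 2 cells and 74.0% in bulk. Bulk libraries ran from 64.8% to 81.4% and rafts with 1 cell from 19.2% to 74.0%. The C1 capture with 2 cells that had 0 in the higher row had 822 FPKM in the other, so its PKM level as a whole was not missing.

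**Figure D5:**
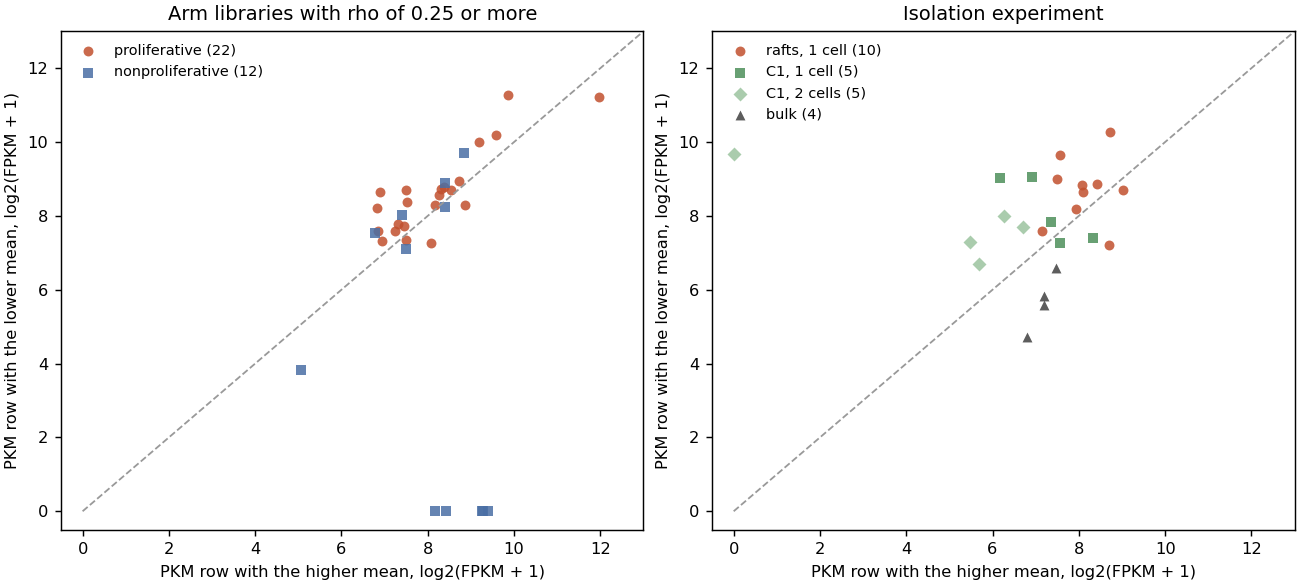
FPKM of the PKM row with the higher mean against the row with the lower mean, both on log2(FPKM + 1) axes, left for the 34 rafts with rho of at least 0.25 and right for the groups of the isolation experiment, with a dashed line of equality. Bulk libraries sit on the side of the higher-mean row, with 64.8% to 81.4% of both rows in it, and 5 nonproliferative rafts lie at 0 of the other row.

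Neighbouring genes were described from lists of their pathways, averaged over arms in the 52 libraries, where 11.5% of all genes were higher and 0.78% lower. The list of 22 other glycolytic genes had 11 tested and none passed, with a median of 0.93. It includes PFKP, the platelet-type phosphofructokinase (2.47, limma adjusted p = 0.0651), HK1, the constitutive hexokinase (1.10, adjusted p = 0.184), LDHB (3.07, adjusted p = 0.0581), ALDOC (0.56, adjusted p = 0.387) and ENO2 (0.28, adjusted p = 0.708). PFKP was the phosphofructokinase gene with the highest median in rafts with 1 cell, at 110 FPKM. Of 7 tested genes of glucose and lactate transport none passed, SLC16A1 with its monocarboxylate carrier at 0.09 (limma adjusted p = 0.939) among them. SLC2A3, a neuronal-type glucose transporter, was detected in 1 of 10 rafts with 1 cell and in 0 of 4 bulk libraries.

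The pentose phosphate pathway, which leaves glycolysis at glucose 6-phosphate and makes NADPH and ribose, had genes that were higher in proliferative rafts of the 52 libraries, among them PGD (2.90, limma adjusted p = 0.0283), PGLS (2.61, adjusted p = 0.0307), RPE (2.17, adjusted p = 0.0185) and the transketolase TKT (2.55, adjusted p = 0.0402). Of 13 tested genes of pyruvate entry to mitochondria, 1 passed, PDHA1 of pyruvate dehydrogenase (2.47, limma adjusted p = 0.0234). Of 10 tested genes of gluconeogenesis and glycogen, 2 passed, the glycogen phosphorylase PYGB (3.19, limma adjusted p = 0.00566) and UGP2, which makes UDP-glucose (2.87, adjusted p = 0.0125). The list of hypoxia genes and HIF targets outside glycolysis also holds the HIF subunit genes HIF1A, EPAS1 and ARNT. Of its 15 tested genes, 1 passed, the stress-response gene DDIT4 (2.55, limma adjusted p = 0.0351), and the median was 0.82. None of 7 tested regulators of glycolysis, a list that shares HIF1A, passed. At rho of at least 0.25, none of these lists had a gene past the threshold. Among the cell markers in the 52 libraries, 2 of 7 epithelial genes and 4 of 8 proliferation genes were higher in proliferative rafts, and 4 of 5 blank-associated genes were lower, against 11.5% of all genes higher and 0.78% lower.

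Levels of the 7 abundant enzymes were correlated across libraries. The median pairwise Pearson r of log2(FPKM + 1) was 0.649 over the 52 libraries of the fit, 0.534 over the 34 with rho of at least 0.25, and 0.216 over the 20 rafts with 1 or 2 cells. These are descriptions, since libraries share arms and library sets and differ in depth. The genes whose levels were most like the mean of the members over 52 libraries were PSMA6, a proteasome subunit (r = 0.912), SH3BGRL3 (0.903), the ribosomal protein gene RPS3 (0.902), JUP, a junction protein (0.899), and ARF1, a small GTPase of the Golgi (0.898), where the median of 2511 genes was 0.598. Over the 34 libraries they were CFL1, which severs actin (0.793), PPP1CA, a phosphatase subunit (0.789), RPL29 (0.734), CCT5 of a chaperonin (0.727) and SH3BGRL3 (0.719), with a median of 0.325. SH3BGRL3 is on both lists.

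The promoters of ENO1, TPI1, PGK1 and LDHA, members higher together in the 52 libraries, are shown for their copies of the core of the hypoxia response element, which HIF-1 binds. The windows printed were chosen for holding matches. The windows are the 250 bases before an annotated start, read along the gene's strand, from RefSeq (GRCh38.p14), which matched 10 of 10 members with 15 windows. They are chr1:8878687-8878936 on the minus strand for ENO1, chr12:6867855-6868104 on the plus strand for TPI1, chrX:78103998-78104247 on the plus strand for PGK1 and chr11:18394313-18394562 on the plus strand for LDHA. Capitals mark ACGTG or GCGTG on either strand.
ENO1: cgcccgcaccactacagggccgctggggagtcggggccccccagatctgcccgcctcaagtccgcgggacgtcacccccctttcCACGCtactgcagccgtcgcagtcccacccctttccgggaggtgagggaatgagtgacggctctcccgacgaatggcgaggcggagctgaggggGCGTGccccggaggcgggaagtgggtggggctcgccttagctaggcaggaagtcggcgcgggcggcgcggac
TPI1: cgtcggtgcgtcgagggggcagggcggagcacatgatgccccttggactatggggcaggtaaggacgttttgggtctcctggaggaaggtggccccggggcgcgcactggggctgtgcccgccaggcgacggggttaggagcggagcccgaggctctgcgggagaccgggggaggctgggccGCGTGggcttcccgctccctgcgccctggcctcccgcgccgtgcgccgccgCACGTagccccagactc
PGK1: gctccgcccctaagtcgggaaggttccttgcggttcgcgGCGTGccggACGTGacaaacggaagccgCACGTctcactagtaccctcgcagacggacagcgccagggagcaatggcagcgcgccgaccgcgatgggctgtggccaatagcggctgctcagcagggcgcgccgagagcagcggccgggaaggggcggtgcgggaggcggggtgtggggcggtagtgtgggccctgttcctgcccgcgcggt
LDHA: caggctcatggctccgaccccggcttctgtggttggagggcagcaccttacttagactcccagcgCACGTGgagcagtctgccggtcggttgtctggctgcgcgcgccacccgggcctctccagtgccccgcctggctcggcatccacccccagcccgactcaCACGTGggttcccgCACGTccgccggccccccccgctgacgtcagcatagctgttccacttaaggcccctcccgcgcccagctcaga
The search took ACGTG and GCGTG on both strands, and CACGTG, a motif that MYC also binds, counts as a pair of overlapping ACGTG matches. ACGTG was found in 9 of the 15 member windows, for 6 of 10 members, and in 18.5% of 35116 RefSeq windows of the same length. GCGTG was found in 6 of 15 windows, for 5 members, and in 32.2% of all windows. The LDHA window shown holds 5 ACGTG matches and the ENO1 window 2 of GCGTG, while the windows of PGAM1, PKM and SLC2A1 held neither. Of the windows not shown, the second of TPI1 held neither, the second of LDHA held 1 GCGTG and no ACGTG, and each of the 3 windows of ALDOA held ACGTG. HK2, which did not pass between classes, had 4 ACGTG and 2 GCGTG matches in 1 of its windows. A match describes letters in a window and says nothing of whether a factor was bound in these cells.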

How the data were processed

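The deposited table holds FPKM values of 120 libraries, which the authors made with RSEM on hg19, per the submitters' processing notes. An aligner version and annotation are not given in the sources used here. Values were used as deposited, with the higher-mean row for a name on several rows. Depth is unknown, so precision is given as the spread between libraries. Groups and doses came from the labels. The members, the gene lists and the tests were chosen with earlier results of these data known.

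Proliferative and nonproliferative rafts were compared in R 4.3.3 by limma-trend (limma 3.58.1) on log2(FPKM + 1), with 1 mean for each of the 8 groups. Tests were two-sided and adjusted by Benjamini-Hochberg over the 11416 genes tested. The fit was checked on simulated data with known shifts. Isolation groups were compared as differences of means without a test. A filter on genes detected keeps fuller libraries, which need not resemble bulk. FPKM shares 1 total among genes, so sparse libraries give isolated high values. Genes named beside the members were the called genes of each list, the paralogs of the members and the 5 genes with the highest correlation to the members' mean. Named outside that rule were PFKP, SLC16A1, KRT8, KRT18, HIF1A, EPAS1 and ARNT. Alternatives were the pseudocount, filters, scaling, libraries with rho with bulk of at least 0.25, genes detected as a covariate, and leaving out arms, library sets or single libraries. Other steps used Python 3.11.15 with numpy 2.4.6, pandas 2.3.3, matplotlib 3.10.9 and scipy 1.17.1. The count and median of the pentose phosphate list are not reported here.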

Additional observations from a re-analysis of the deposited data

Results flagged for a closer look

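In 29 of 128 pairs of a member and a group of 4 to 10 libraries, 1 library stood far from the rest of its group (Dixon's test at 95%). The test's rate of 1 such pair in 20 by chance assumes normal values and independent pairs. Many levels here were 0 and many pairs share a library, so the count cannot be set against that rate. In bulk, TPI1 was low in library 1, at 713 FPKM against 888 to 928 FPKM in the other 3, and PGK1 was high in library 2, at 480 FPKM against 397 to 406 FPKM. Among C1 captures with 2 cells, PGAM1 was low in capture 4 (16.5 FPKM against 131 to 275 FPKM), and PKM was 0 in capture 1 against 43.3 to 103 FPKM. SLC2A1 was 4.90 FPKM in C1 capture 3 with 1 cell, against 49.04 to 68.2 FPKM.

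Most of the others lay in single rafts of the gemcitabine experiment. Proliferative saline raft 5 was lowest for GPI, ALDOA, TPI1, PGK1, PGAM1 and ENO1, all at 0, and for LDHA at 83.7 FPKM. Proliferative 2 nM raft 8 was lowest for ALDOA, TPI1, PGK1, PGAM1, ENO1, PKM and LDHA, all at 0. Proliferative 5 nM raft 7 had 0 of GPI and ENO1. These 3 rafts had fewer than 1000 genes detected and entered no fit of the 52 libraries. Untreated proliferative raft 3 was highest for SLC2A1 (175.5 FPKM) and HK2 (10.01 FPKM, where the other 7 were at 0). Untreated nonproliferative raft 4 was highest for SLC2A1 (8.95 FPKM), GPI (181 FPKM), ALDOA (3735 FPKM) and LDHA (793 FPKM), and it is 1 of the 2 rafts behind the untreated comparison at rho of at least 0.25. HK2 reached 59.0 FPKM in nonproliferative 2 nM raft 1 against 0 to 4.06 FPKM, and SLC2A1 111 FPKM in nonproliferative 5 nM raft 4, where the other 7 were at 0.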

How the results depend on the processing

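No paired analysis was possible because the running numbers in the titles are not shared between the groups compared and the labels tie them to no culture or batch. The averaged comparison called 5 members, 1314 genes higher and 89 lower. The members called were 0 with at least 4000 genes detected, 2 at rho of at least 0.25, 3 without the untreated arm and 0 at rho of at least 0.25 without it. Genes higher were 757 with no filter on low values, 532 with quantile normalization, 623 with all 64 libraries, 503 with at least 4000 genes, 71 at rho of at least 0.25, 216 with genes detected as a covariate, and 662, 361, 434 and 803 without the untreated, saline, 2 nM and 5 nM arm. Genes lower were 17 with no filter, 36 with all libraries, 55 with at least 4000 genes, 22 at rho of at least 0.25, 10 with the covariate, and 4, 13 and 53 without the saline, 2 nM and 5 nM arm. At rho of at least 0.25 without the untreated arm they were 19 and 1. Leaving out 1 library gave 5 to 6 members, 745 to 1910 genes higher and 39 to 175 lower. Members called within an arm, summed over arms, were 2, 5 and 1 with at least 4000 genes, at rho of at least 0.25 and there without the untreated arm, where treatment comparisons called 3, 6 and 3 and the difference between arms called 2 at rho of at least 0.25. Signs turned for SLC2A1 (-0.14 at rho of at least 0.25, -0.47 there without the untreated arm), HK2 (-0.018 with all libraries, -0.29 with the covariate), GPI (-0.0096 with at least 4000 genes) and PKM (-0.14 at rho of at least 0.25 without the untreated arm). Some of these settings also left fewer libraries, and the cause of the changes was not tested.

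Rafts against C1 captures had 4 members past the fold upward in set A and 1 in set B, and 1 downward in set A. Rafts with 2 cells against 1 cell had 1 upward with a pseudocount of 0.1 and 1 in set B. Rafts against bulk had 4 upward with quantile normalization and 1 in set B, and downward 0 with quantile normalization, 1 on the TPM scale and 0 in set A. Leaving out 1 library gave member medians of 0.44 to 0.70 for rafts against C1 captures, -0.019 to 0.30 for C1 captures with 2 cells against 1 cell, 0.16 to 0.40 for rafts against bulk and -0.16 to 0.16 for C1 captures against bulk. Members past the fold upward were then 3 to 3, 1 to 1, 2 to 3 and 1 to 2 in that order, and downward 1 to 2, 1 to 2, 2 to 2 and 2 to 2.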

Other observations

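Among the water libraries, library 5 held GPI, ALDOA, PGAM1 and LDHA at 163, 172, 309 and 137 FPKM with the other members at 0, and library 1 held LDHA alone, at 1921 FPKM. Empty C1 captures held PGK1 at 124 and 53.0 FPKM in 2 of 5 captures.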
